A study of Mus musculus with 4 samples.

Results

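The genes described here encode the machinery that takes a cell from G1 into S phase and copies its DNA. They are a list of 41 genes chosen by name from the G1/S and replication apparatus. Of these, 40 had a transcript cluster (the array's unit of measurement) that carried their symbol alone. The remaining gene, Mcm7, shares its cluster with the microRNA genes Mir93 and Mir25 and is given no value. The 40 genes are part of 30145 genes tested in all, and the gene annotation classes each of them as protein-coding.

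Eukaryotic replication begins when the origin recognition complex, with Cdc6 and Cdt1, loads the ring-shaped MCM helicase onto DNA. Cdc45 and the GINS complex then join MCM to form the active helicase, primase and DNA polymerase alpha lay down primers, and a sliding clamp with its loader lets the polymerases delta and epsilon extend them. Many of these genes are induced together by E2F transcription factors once cyclin-dependent kinases have inactivated the retinoblastoma protein. Regulatory T cells, the Foxp3-expressing CD4 T cells that restrain immune responses, contain a cycling fraction in the spleen.

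The samples were 4 one-colour arrays of RNA from mouse splenic regulatory T cells. All mice were 7 to 8 weeks old and carried the transgene B6-Tg(Foxp3EGFP-cre)1cJbs/J on C57BL/6, in which Foxp3 control drives Cre recombinase together with a green fluorescent protein. The WT group (replicates 1 and 3) had this transgene alone, and the KO group (replicates 1 and 2) had it combined with BMI1-flox, so that the Polycomb gene Bmi1 would be removed in cells that express Foxp3. CD4 cells were enriched magnetically and sorted for green fluorescence, which gave 15000 to 40000 cells a sample. The sample titles and treatment field describe unstimulated cells, and BMI1-flox is given for the KO group alone. The series text instead describes BMI1-/- animals and cells stimulated through CD3 and CD28 for 24 hours, and the labels do not settle which state these arrays hold. That matters for genes of the cell cycle, because T cell stimulation is known to induce them. The labels do not tie the samples to separate animals, and the spread that p-values are set against may be technical.

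Over all transcript clusters the array medians lay between 4.65 and 4.72 on the log2 scale, and Pearson's r between arrays was 0.991 to 0.994. The regulatory T cell gene Il2ra, which encodes CD25, read 14.97 to 15.01 on the 4 arrays, while Foxp3 shares a cluster with other genes and has no value of its own. Bmi1 read 8.98 and 8.98 in the arrays labelled WT and 9.58 and 9.91 in the arrays labelled KO, a difference of 0.77 (SE 0.16, limma adjusted p 0.298) in the direction opposite to the genotype label. Which exons the Bmi1 cluster covers is not given in the sources used here, so this reading is no check of the deletion if they lie outside it. Directions below rest on the labels alone, hence the wording "arrays labelled KO".

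No replication gene passed a Benjamini-Hochberg adjusted p under 0.05 in limma's moderated test of KO against WT, in which 0.00663% of all genes passed (2 of 30145, Snord14e and Igf2bp3). The smallest limma adjusted p among the 40 genes was 0.295. At an unadjusted limma p under 0.05, 4 genes were higher in the arrays labelled KO (10.0% of 40, against 6.36% of all genes tested and 3.64% of protein-coding genes). They were Gins1, Prim1, Rpa2 and Rfc2. In the other direction the count was 0, against 3.76% of all genes and 3.29% of protein-coding genes. Both arrays labelled KO lay above both arrays labelled WT for 13 genes (32.5%, against 21.0% of all genes and 18.0% of protein-coding genes) and below them for 2 genes, Pold1 and Chek1 (5.0%, against 17.5% and 18.7%). In all, 27 of the 40 differences were above 0 and 13 below (67.5% above, against 51.6% of all genes and 49.1% of protein-coding genes), and their median was 0.08 on the log2 scale, beside medians of 0.005 for all genes and -0.005 for protein-coding genes. This split was 31 to 9 after centring each array on its median, with medians of 0.10 for the list and 0.03 for all genes. After a further quantile normalization it was 30 to 10, with medians of 0.105 and 0.0275. Among the 15074 brighter genes it was 22 to 13, with medians of 0.07 for the list and 0.045 for all of them. In that fit 4 of 35 members were higher at an unadjusted limma p under 0.05, against 10.2% of its genes. The split lay between 21 to 19 and 33 to 7 when 1 array was left out. It was 21 to 19 without WT replicate 1 or without KO replicate 1, and 33 to 7 without WT replicate 3. The medians of the list then ran from 0.02 to 0.14. With 2 arrays a group, the smallest two-sided p of an exact permutation test is 0.333.

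The intervals bear on size only as far as the spread between these arrays goes, and that spread may be technical. The 95% interval of the difference lay within a 2-fold change in either direction (-1 to 1 on the log2 scale) for 39 of the 40 genes. The same held for 28754 of all 30145 genes. Gins1 was the exception in the list, with an interval of 0.40 to 1.19. Within -0.5 to 0.5 lay the intervals of 17 of the 40 genes, a smaller share than the 19699 of all 30145. The median SE was 0.15 for the list and 0.12 for all genes. The list and all genes were not matched for level. Below the array median on every array lay 12112 of all 30145 genes and 2 of the 40. For 31 genes (77.5%, against 72.1% of all genes) the larger of the 2 gaps between arrays of the same genotype exceeded the difference between genotypes.

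**Figure D1:**
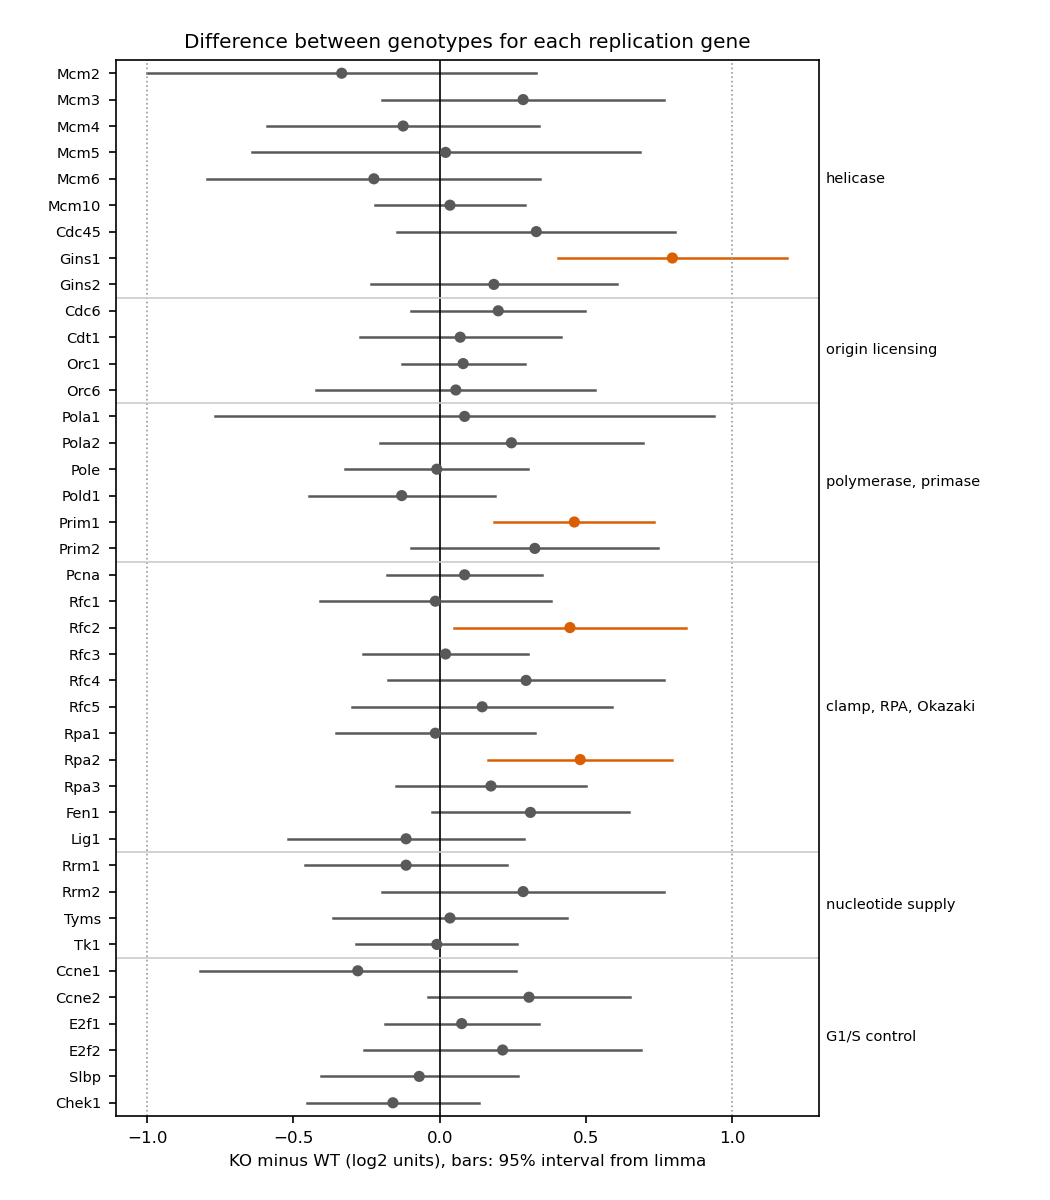
Difference between the arrays labelled KO and WT for each of 40 replication genes (log2 units, horizontal axis), with 95% intervals from limma, grouped by role. Orange marks the 4 genes with an unadjusted limma p under 0.05 (Gins1, Prim1, Rfc2 and Rpa2), dotted lines mark a 2-fold change, and only the interval of Gins1 crosses one of them.

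The 4 genes with the smallest unadjusted p belong to different machines. Gins1, a subunit of the GINS complex of the active helicase, read 6.13 and 6.05 in the arrays labelled WT and 6.71 and 7.06 in the arrays labelled KO. The mean was 6.09 ± 0.06 in WT and 6.89 ± 0.25 in KO (SD, n = 2 arrays per genotype). The difference of 0.80 (SE 0.15) is 1.74-fold with a 95% interval from 1.32 to 2.28 (limma adjusted p 0.295). The genotypes did not overlap, and the 2 KO arrays lay further from each other than the 2 WT arrays. Prim1, the catalytic primase subunit that makes the RNA primer, read 6.38 and 6.36 against 6.82 and 6.84, a difference of 0.46 (SE 0.11), 1.38-fold (limma adjusted p 0.333). Its arrays were within 0.02 of each other in each genotype. Rpa2, the middle subunit of the single-strand binding protein RPA, read 7.62 and 7.63 against 8.05 and 8.16, a difference of 0.48 (SE 0.12), 1.39-fold (limma adjusted p 0.361). Rfc2, a subunit of the clamp loader, read 9.66 and 9.82 against 10.32 and 10.05, a difference of 0.45 (SE 0.15), 1.36-fold (limma adjusted p 0.441). When each array was left out in turn, the difference ran from 0.62 to 0.97 for Gins1 and from 0.45 to 0.47 for Prim1. For Rpa2 it ran from 0.425 to 0.535 and for Rfc2 from 0.31 to 0.58. These fits reuse the arrays on which the 4 genes were picked, so they are no independent check.

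**Figure D2:**
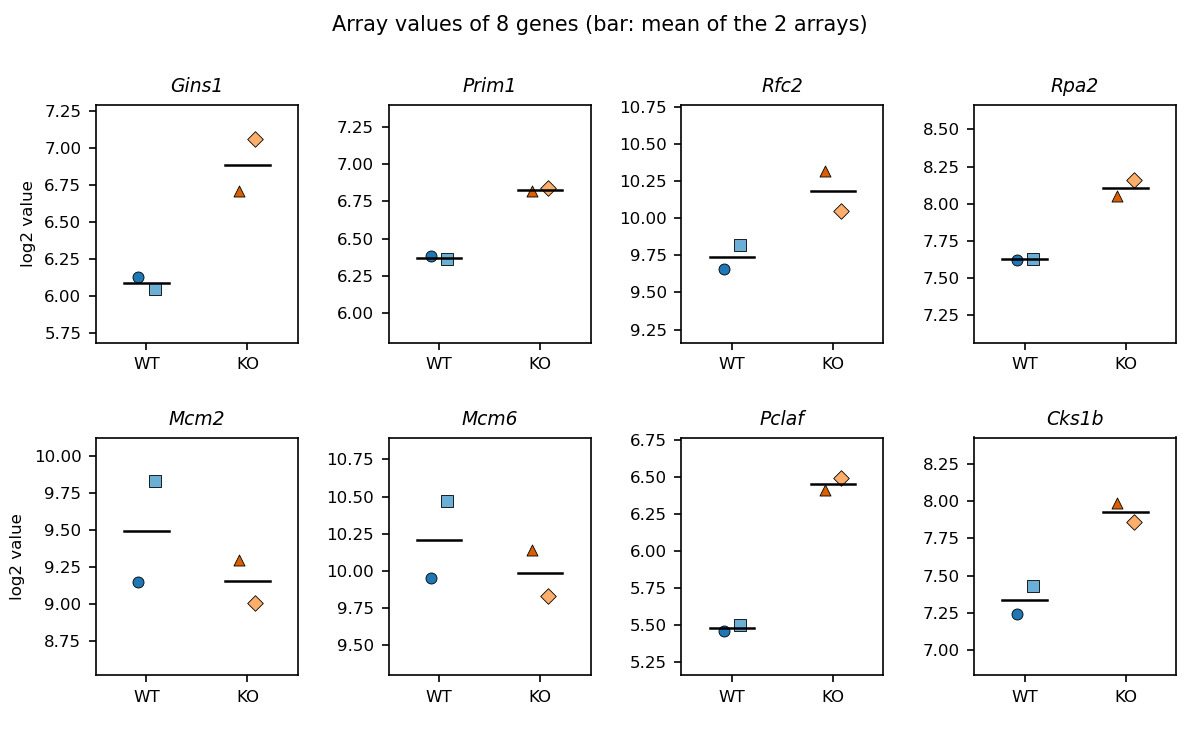
Log2 values of 8 genes on each array (vertical axes, each spanning 1.6 log2 units), with circles and squares for WT replicates 1 and 3, triangles and diamonds for KO replicates 1 and 2, and a bar at the mean of each genotype. Gins1, Prim1, Rfc2, Rpa2, Pclaf and Cks1b do not overlap between genotypes, whereas the 2 WT arrays of Mcm2 and of Mcm6 enclose at least 1 KO array.

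Because many replication genes are E2F targets, the promoter windows of the members were searched for the E2F core TTCCCGC or TTGGCGC on both strands. RefSeq windows (GRCm38.p6, 250 bases before to 50 after the annotated start) were given for 34 of the 41 genes. Gins1 and Rfc2 were among the genes without a window and were not searched. Of the 34, 18 (52.9%) held a match, against 7.79% of all 27025 genes in the table and 10.3% of the protein-coding genes tested. The reverse complement of the second string can overlap it, and such an overlap counts as a match on both strands. The stretches below are shown for the 4 genes of smallest unadjusted p that have a match wholly before the start, together with Mcm5 and Mcm6, which were added after their values were seen because they stand for the helicase described next. Each is 100 bases, 5′ to 3′ on the strand of its gene, and capitals mark the match. The Prim1 stretch is chr10:128015115-128015214 (plus strand), Rpa2 chr4:132768260-132768359 (plus), Cdc6 chr11:98907966-98908065 (plus), Rpa3 chr6:8259142-8259241 (minus), Mcm5 chr8:75109306-75109405 (plus) and Mcm6 chr1:128359730-128359829 (minus).
Prim1: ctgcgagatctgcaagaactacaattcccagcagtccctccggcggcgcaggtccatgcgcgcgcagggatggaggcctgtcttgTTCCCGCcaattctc
Rpa2: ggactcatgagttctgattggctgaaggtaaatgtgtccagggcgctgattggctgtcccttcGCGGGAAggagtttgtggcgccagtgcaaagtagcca
Cdc6: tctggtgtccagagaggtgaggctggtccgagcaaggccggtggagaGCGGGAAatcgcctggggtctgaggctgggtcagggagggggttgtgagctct
Rpa3: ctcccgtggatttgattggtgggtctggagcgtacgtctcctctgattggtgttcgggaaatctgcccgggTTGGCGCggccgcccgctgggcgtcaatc
Mcm5: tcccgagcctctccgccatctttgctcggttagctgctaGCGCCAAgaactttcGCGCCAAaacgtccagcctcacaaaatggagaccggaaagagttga
Mcm6: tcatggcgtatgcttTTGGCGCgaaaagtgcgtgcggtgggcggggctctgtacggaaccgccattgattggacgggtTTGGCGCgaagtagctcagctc
Mcm5 and Mcm6 each hold 2 copies in these stretches, and the single copies of Rpa2 and Cdc6 lie in the reverse orientation to that of Prim1. A match is a string of letters and no measure of binding. The 17 measured genes with a match had a median difference of 0.07 between the arrays labelled KO and WT (11 of 17 above 0). The 16 measured genes with a window and no match had 0.065 (11 of 16 above 0). Gins1 and Rfc2, which had no window, are in neither group.

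The helicase genes Mcm2 to Mcm6, subunits of the hexameric ring, did not separate by genotype apart from Mcm3. Mcm2 read 9.15 and 9.83 in the arrays labelled WT and 9.30 and 9.01 in the arrays labelled KO, a difference of -0.34 (SE 0.26). Mcm4 read 10.68 and 11.05 against 10.87 and 10.61 (-0.13, SE 0.18). Mcm6 read 9.95 and 10.47 against 10.14 and 9.83 (-0.23, SE 0.22). For these 3 genes WT replicate 3 was the highest of the 4 arrays and KO replicate 2 the lowest. Mcm5 read 8.58 and 8.89 against 9.09 and 8.42 (0.02, SE 0.26). Mcm3 read 8.80 and 8.87 against 9.35 and 8.89 (0.29, SE 0.19), so that its groups were separated by 0.02 and KO replicate 1 alone stood apart. Limma adjusted p for the 5 genes lay between 0.697 and 0.985.

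A common feature of Mcm2 to Mcm6 lay within the genotypes. All 5 were higher in WT replicate 3 than in WT replicate 1, by 0.07 (Mcm3) to 0.68 (Mcm2), and all 5 were higher in KO replicate 1 than in KO replicate 2, by 0.26 (Mcm4) to 0.67 (Mcm5). Over the 40 genes, 16 (40.0%) were higher both in WT replicate 3 and in KO replicate 1, against 23.5% of all genes and 26.0% of protein-coding genes. Besides the MCM genes these included the polymerase genes Pola1, Pola2, Pole and Pold1, the clamp gene Pcna and E2f2. Pola1 had the widest spread, at 0.91 between the WT arrays and 0.46 between the KO arrays. The pattern was noticed in these values, and no label gives a batch that could be set against it.

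**Figure D3:**
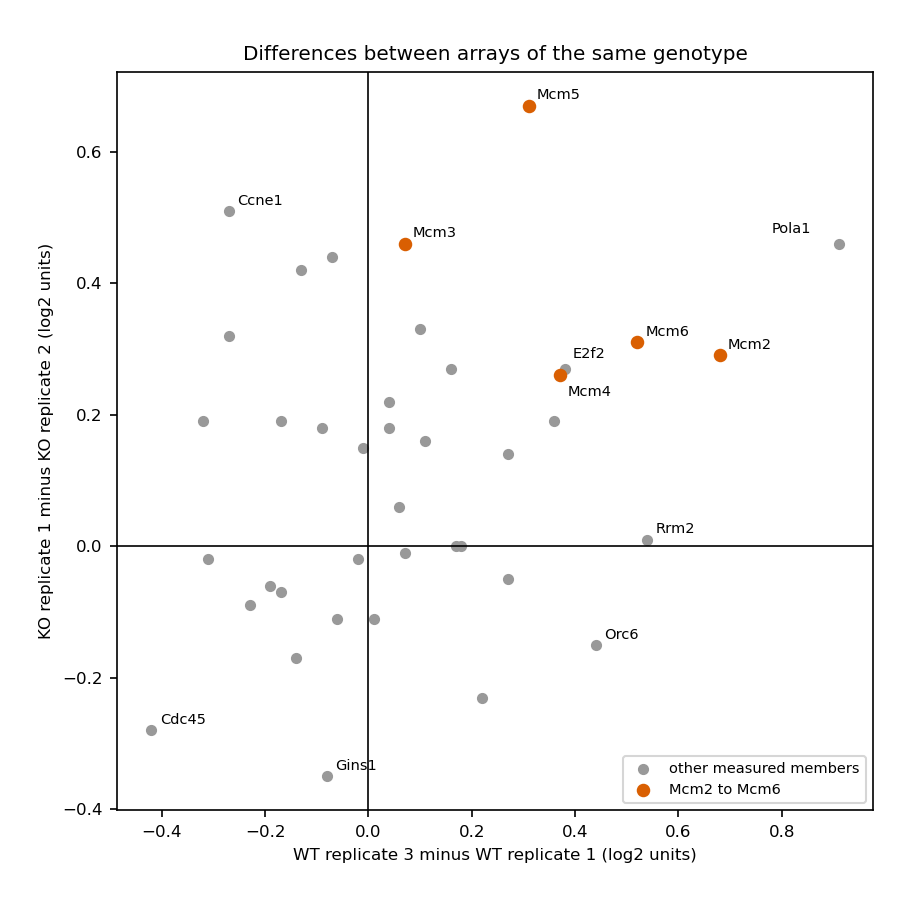
Difference between the 2 WT arrays (horizontal axis) and between the 2 KO arrays (vertical axis) for 40 replication genes, in log2 units. Mcm2 to Mcm6 (orange) all lie in the upper right quadrant, as does Pola1 at 0.91 and 0.46, and Cdc45 and Gins1 lie in the lower left.

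Among the partners that turn MCM into an active helicase, Gins1 alone had arrays that did not overlap between genotypes. Cdc45, which bridges MCM and GINS, read 6.10 and 5.68 in the arrays labelled WT and 6.08 and 6.36 in the arrays labelled KO (0.33, SE 0.19), so that WT replicate 1 and KO replicate 1 were 0.02 apart. Gins2, a second GINS subunit, read 5.40 and 5.27 against 5.73 and 5.31 (0.19, SE 0.16) and overlapped between genotypes. Mcm10, an initiation factor, lay below the median of the array on all 4 arrays (4.58 and 4.39 against 4.49 and 4.55). The table has no detection call, so a difference at that level can be understated. Whether Gins1 differed from Gins2 or from Cdc45 in its change was not tested.

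Origin licensing genes showed small positive differences, all with a limma adjusted p of 0.650 or more. Cdc6, the loading ATPase, read 4.96 and 4.79 against 5.17 and 4.98 (0.20, SE 0.12), close to the array median. Orc1, the largest subunit of the origin recognition complex, was below the array median on every array and went from 4.40 and 4.47 to 4.51 and 4.52 (0.08, SE 0.08). The genotypes were separated by 0.02 for Cdc6, against gaps of 0.17 and 0.19 between arrays of the same genotype, and by 0.04 for Orc1, against 0.07 between its WT arrays. Cdt1, the licensing factor that geminin inhibits, read 6.18 and 6.45 against 6.36 and 6.41 (0.07, SE 0.13). For Orc6 the values were 7.68 and 8.12 against 7.88 and 8.03 (0.06, SE 0.19), with both KO arrays between the WT arrays.

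Among polymerases and primase, both primase genes had both arrays labelled KO on top, and none of the 4 polymerase genes did. That order was seen for 21.0% of all genes and 18.0% of protein-coding genes. Whether the primase genes differed from the polymerase genes in their change was not tested. Prim2, the regulatory primase subunit, read 7.88 and 7.56 against 8.14 and 7.95 (0.33, SE 0.17, limma adjusted p 0.597), in the same direction as Prim1. Pola1, the catalytic subunit of polymerase alpha, read 6.11 and 7.02 against 6.88 and 6.42 (0.09, SE 0.34), and its 95% interval of -0.77 to 0.94 is the widest of the 40. Pola2 is the accessory subunit of the same polymerase and read 8.85 and 9.21 against 9.37 and 9.18 (0.25, SE 0.18). Pole, the leading-strand polymerase, read 6.11 and 6.15 against 6.23 and 6.01 (-0.01, SE 0.12). Pold1, the catalytic subunit of polymerase delta, read 6.98 and 7.02 against 6.96 and 6.78 (-0.13, SE 0.12). The Pold1 groups were separated by 0.02, which is smaller than the gap of 0.04 between its WT arrays.

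For the clamp, its loader, RPA and the Okazaki fragment enzymes, 8 of 11 differences were above 0 (against 51.6% of all genes and 49.1% of protein-coding genes) and 5 of 11 genes had both KO arrays on top (against 21.0% and 18.0%). Pcna, the sliding clamp, read 13.58 and 13.69 against 13.80 and 13.64, and its difference of 0.09 (SE 0.10) had a 95% interval of -0.18 to 0.35. The sign of this small difference was not stable, since it was -0.03 after a further quantile normalization. Rfc4 read 9.27 and 9.20 against 9.75 and 9.31 (0.30, SE 0.18), with KO replicate 1 apart from the other arrays. The remaining loader subunits had 0.15 (Rfc5, SE 0.17), 0.02 (Rfc3, SE 0.11) and -0.02 (Rfc1, SE 0.15, the large subunit). Rpa3, the smallest RPA subunit, read 8.44 and 8.38 against 8.53 and 8.64 (0.18, SE 0.13). Rpa1, the largest RPA subunit, read 8.96 and 9.13 against 9.03 and 9.03 (-0.02, SE 0.13), so that the 3 subunits of 1 complex read from -0.02 to 0.48. Fen1, the flap nuclease, read 6.56 and 6.33 against 6.71 and 6.80 (0.31, SE 0.13, limma adjusted p 0.522). Lig1, the ligase that joins Okazaki fragments, read 7.61 and 7.71 against 7.71 and 7.38 (-0.12, SE 0.16).

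Genes of nucleotide supply had differences from -0.12 to 0.29, and 3 of the 4 had overlapping arrays, as did 18542 of all 30145 genes. Rrm1, the large subunit of ribonucleotide reductase, read 7.80 and 7.66 against 7.53 and 7.70 (-0.12, SE 0.14). Rrm2, its S phase subunit, read 4.60 and 5.14 against 5.16 and 5.15 (0.29, SE 0.19), so that WT replicate 1 alone was low, below the array median, and WT replicate 3 was level with the KO arrays. Tyms, thymidylate synthase, read 8.80 and 9.02 against 8.83 and 9.06 (0.04, SE 0.16). Tk1, thymidine kinase, read 5.86 and 5.85 against 5.92 and 5.77 (-0.01, SE 0.11), with a 95% interval of -0.29 to 0.27.

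The regulators of G1/S pointed in both directions. The E cyclins, which activate Cdk2 at S phase entry, had opposite signs: Ccne1 read 7.38 and 7.11 in the arrays labelled WT and 7.22 and 6.71 in the arrays labelled KO (-0.28, SE 0.21). Ccne2 read 5.70 and 5.39 against 5.84 and 5.86 (0.31, SE 0.14, limma adjusted p 0.538). Whether the 2 cyclins differed from each other in their change was not tested. E2f1, an activator E2F, read 4.73 and 4.64 against 4.85 and 4.67 (0.08, SE 0.10), around the array median. E2f2, a second activator, read 7.23 and 7.61 against 7.77 and 7.50 (0.22, SE 0.19) and overlapped. Chek1, the replication checkpoint kinase, read 6.23 and 6.06 against 5.95 and 6.02 (-0.16, SE 0.12), lower in both KO arrays. Slbp, which binds histone mRNA in S phase, read 8.03 and 8.21 against 8.05 and 8.05 (-0.07, SE 0.13).

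**Figure D4:**
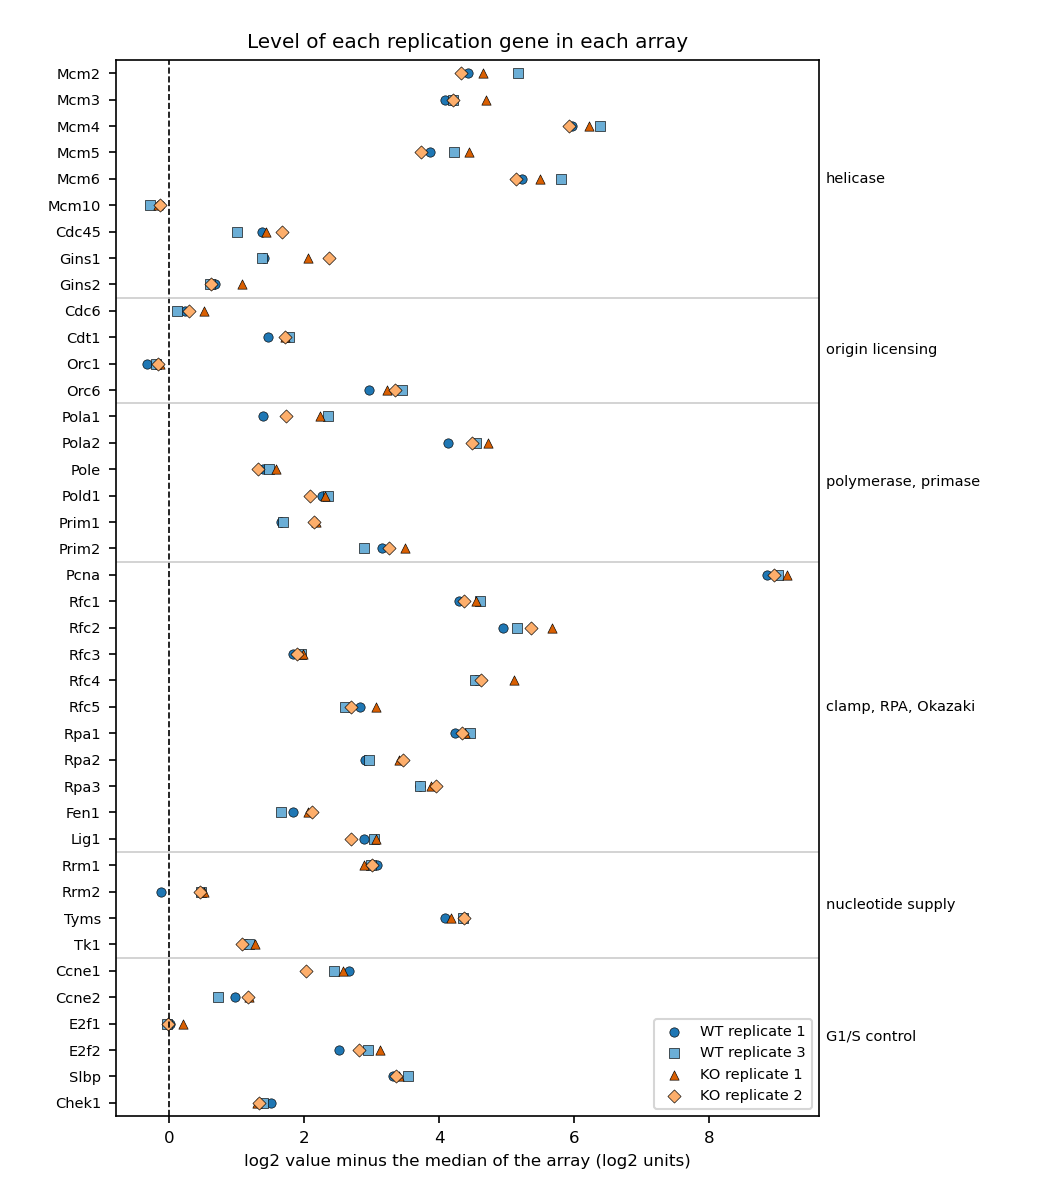
Level of each of 40 replication genes on each of the 4 arrays, as the log2 value minus the median of that array (horizontal axis; the dashed line is the array median), grouped by role. Values are to be compared within a gene and not between genes, since probes differ in brightness; Mcm10 and Orc1 lie below the median on all 4 arrays, and E2f1 and Rrm2 on 2 and 1 of them.

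A wider list of 74 other G1/S and replication genes, of which 67 had a value, was read from the same fit. None passed the adjusted threshold in limma, and at an unadjusted limma p under 0.05, 6 of 67 were higher (against 6.36% of all genes and 3.64% of protein-coding genes) and 0 lower (against 3.76% and 3.29%). In all 44 differences were above 0 and 23 below, against 51.6% above 0 among all genes and 49.1% among protein-coding genes, with a median of 0.07. Pclaf, a small protein that binds the Pcna clamp, read 5.46 and 5.50 in the arrays labelled WT and 6.41 and 6.49 in the arrays labelled KO, a difference of 0.97 (SE 0.10), 1.96-fold (limma adjusted p 0.139). Its arrays differed by at most 0.08 within a genotype. Cks1b, a binding partner of cyclin-dependent kinases, read 7.24 and 7.43 against 7.99 and 7.86 (0.59, SE 0.14, 1.51-fold, limma adjusted p 0.333). Rbl2, the pocket protein p130 of quiescent cells, had 0.45 (SE 0.15, limma adjusted p 0.437), and Pold4, the smallest subunit of polymerase delta, had 0.48 (SE 0.17, limma adjusted p 0.448). The genes of smallest p in the other direction were Wdhd1, a replisome adaptor (-0.45, SE 0.21), Gmnn, the Cdt1 inhibitor geminin (-0.63, SE 0.39), Rrm2b (-0.22, SE 0.14) and Orc3 (-0.20, SE 0.12), with limma adjusted p from 0.565 to 0.679. WT replicate 3 was high for Gmnn (8.10, against 7.07, 6.66 and 7.26 on WT replicate 1 and KO replicates 1 and 2), as it was for Mcm2.

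In the switch upstream of these genes, no gene passed the adjusted threshold. The D cyclins Ccnd2 and Ccnd3 had -0.05 (SE 0.10) and -0.11 (SE 0.14), while Ccnd1 shares its cluster with a microRNA gene. The kinases Cdk4 and Cdk6, which D cyclins activate, had 0.07 (SE 0.12) and 0.13 (SE 0.13), and Cdk2 had -0.05 (SE 0.21). Rb1, the retinoblastoma gene, had 0.16 (SE 0.13), and Rbl1, the related p107, had 0.08 (SE 0.28). Rb1 has 3 clusters and E2f3 has 2, and only the brightest cluster of each is given here. For the other E2f genes the differences were 0.12 (E2f3, SE 0.14), 0.04 (E2f4, SE 0.14), 0.34 (E2f5, SE 0.20), 0.03 (E2f6, SE 0.11), 0.15 (E2f7, SE 0.09) and 0.22 (E2f8, SE 0.09). Of these, only E2f8 had an unadjusted limma p under 0.05 (limma adjusted p 0.494), and it read 4.09 to 4.40, below the array median. Cdkn1a, which encodes the kinase inhibitor p21, read 5.74 and 5.75 against 6.69 and 6.83 (1.02, SE 0.11, limma adjusted p 0.146). Cdkn2a, a classical target of Bmi1 repression, read 4.60 and 4.94 against 5.23 and 5.52 (0.61, SE 0.16, limma adjusted p 0.375). Neither inhibitor overlapped between genotypes. Both KO arrays lay above both WT arrays for 21.0% of all genes and 18.0% of protein-coding genes. Cdkn2a lay close to the array median, at -0.12 and 0.27 relative to it on WT replicates 1 and 3.

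Genes of mitosis, which follow S phase, were set beside the replication genes on the same arrays. Of 33 measured mitotic genes, 7 were higher and 0 lower at an unadjusted limma p under 0.05, beside 6.36% of all genes (3.64% of protein-coding genes) higher and 3.76% (3.29%) lower. The median difference was 0.12. For the replication genes the count was 4 of 40 and the median 0.08. No mitotic gene passed the adjusted threshold. Mki67, the proliferation marker, read 7.17 and 8.09 in the arrays labelled WT and 8.69 and 8.90 in the arrays labelled KO (1.17, SE 0.32). The others of smallest p were Tpx2, which organises the spindle (0.65, SE 0.18), the A-type cyclin gene Ccna2 (0.63, SE 0.16) and Birc5, which encodes survivin (0.23, SE 0.07). Limma adjusted p for the 4 genes ran from 0.357 to 0.406. Birc5 read 3.27 to 3.54, below the array median on every array. In all, 9 of the 33 mitotic genes lay below the array median throughout. Both lists are read on the same arrays, and whether they differ from each other was not tested.

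**Figure D5:**
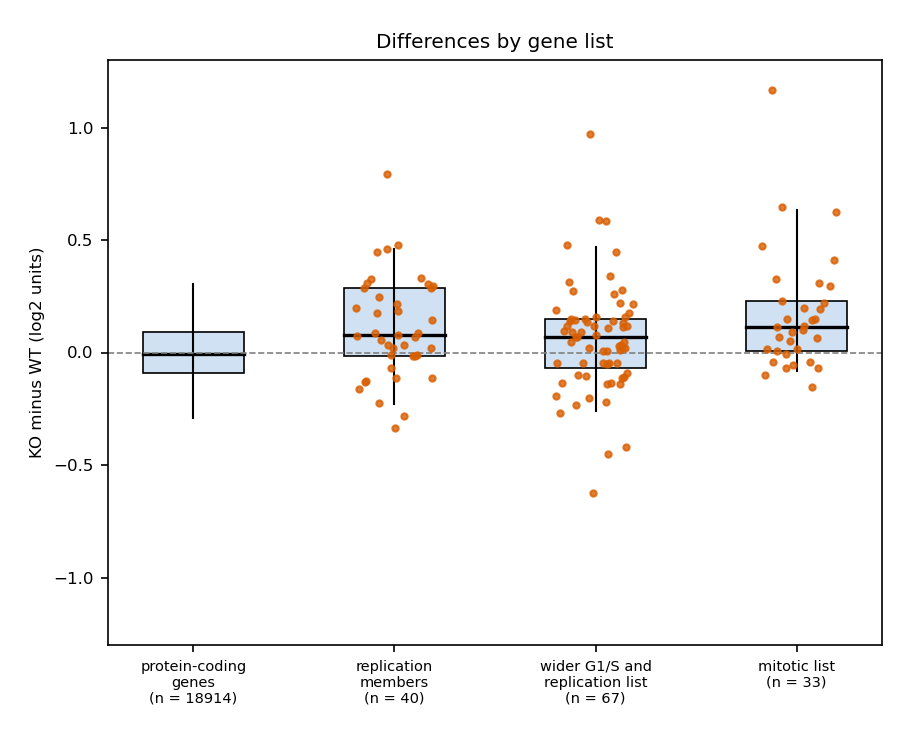
Difference between the arrays labelled KO and WT (vertical axis, log2 units) for protein-coding genes, the 40 replication members, 67 genes of the wider list and 33 mitotic genes. Boxes span the 25th to 75th percentile with the median as a line, whiskers span the 5th to 95th percentile, and points are single genes; the medians of the 3 lists are 0.08, 0.07 and 0.12, and that of protein-coding genes is -0.005.

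Other cells in the sort could carry cycling genes, and their markers were read on the same arrays. In bulk RNA, more cells of a type and more RNA per cell cannot be told apart. Plasma cell markers were higher in the arrays labelled KO for 7 of 8 genes, 3 of them at an unadjusted limma p under 0.05 (Ighg2b, Jchain and Mzb1). Among all genes, 51.6% were higher, and 6.36% were higher at that p. The mean level of the plasma cell markers was 5.87 and 5.97 in the arrays labelled WT and 6.38 to 6.45 in the arrays labelled KO. The higher mean came mostly from Ighg2b (1.81) and Jchain (1.03), while the others had differences from -0.03 to 0.395. Sdc1 and Tnfrsf17 lay below the array median on every array. B cell markers were higher for 1 of 7 genes, with mean levels of 5.03 to 5.23 over the 4 arrays, and 6 of 8 myeloid markers lay below the array median on every array. The NK cell markers averaged 6.04 and 6.34 against 6.42 and 6.57, with 1 of 4 below the array median throughout and 3 of 4 higher. The higher mean came mostly from Nkg7, a cytotoxic granule gene that CD8 T cells also express, which read 10.48 and 11.09 against 11.58 and 12.31 (1.16, SE 0.32, limma adjusted p 0.375), while the other 3 had differences from -0.125 to 0.13. Among CD8 T cell markers Cd8a was below the array median on all arrays (4.07 to 4.23), whereas Cd8b1 read 9.74 and 10.78 against 10.71 and 11.26. The pan-T-cell markers measured were higher for 4 of 4 genes (means of 15.61 and 15.70 against 15.95 and 15.90). Of these, 2 had an unadjusted limma p under 0.05, and Cd3e had a difference of 0.565 (SE 0.06, limma adjusted p 0.139). Naive T cell markers were higher for 2 of 3, with differences of 0.62 (Ccr7), 0.445 (Lef1) and -0.93 (Il7r). At an unadjusted limma p under 0.05, 2 of these 3 were higher and 1 lower, against 6.36% and 3.76% of all genes. Erythroid markers averaged 4.51 to 4.61. The markers of regulatory T cells averaged 13.71 and 13.73 against 13.60 and 13.42, with 3 of 6 higher. The lower mean came mostly from Lrrc32, a surface protein that presents latent TGF-beta, which read 12.05 and 12.28 against 11.18 and 10.48 (-1.335, SE 0.25, limma adjusted p 0.295), while the other 5 had differences from -0.155 to 0.245. Lrrc32, Nkg7, Ighg2b, Jchain and Cd3e were singled out after their values were seen. The part of these marker differences in the values of the replication genes was not tested.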

How the data were processed

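Expression was measured on 1-colour arrays in 4 samples, grouped by their titles. The authors deposited log2 values for 65528 transcript clusters; RMA and Transcriptome Analysis Console are named per the submitters' processing notes, with no version. Log base 2 is inferred from RMA and from the range (1.82 to 19.38). For the genome build and the background handling, the sources used here give nothing. By the platform table, 30675 clusters had 1 symbol, 1842 several and 33011 none. A microRNA's hairpin name beside its gene symbol was ignored, and symbols were updated through RefSeq (GRCm38.p6). The brightest cluster stood for a gene, which left 30145 genes, and 0 value columns were unused.

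Differences (KO minus WT) were tested with limma 3.58.1 in R 4.3.3 (two-sided; lmFit, then eBayes with trend), and p-values were adjusted by Benjamini-Hochberg over all genes. The procedure was tested on simulated data. With 4 arrays, precision is limited by their number. The members and lists were chosen with earlier results of these data known. By rule, every measured member was named, as were the 4 genes of smallest p per direction of the wider list with its D cyclins, cyclin-dependent kinases, pocket proteins and E2f genes, and 4 mitotic genes. Bmi1, Cdkn1a, Cdkn2a and Mki67 were named in every case. Promoter windows came from RefSeq. The 10 alternatives cover scaling, a filter on dim genes, cluster choice, variance model and each array left out.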

Additional observations from a re-analysis of the deposited data

How the results depend on the processing

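No paired analysis was possible because the groups share only replicate number 1. Of 395 differences of single replication genes recomputed under 10 alternatives, 359 kept their sign and stayed above the adjusted threshold, and no replication gene passed it under any alternative. The number of all genes past it was 2, and it became 1 after centring, 0 after quantile normalization, 0 without an intensity trend, 0 with robust settings, 13 among the brighter genes and 0 without any 1 array. Replication genes with an unadjusted limma p under 0.05 and KO higher numbered 4, and 4 to 6 under alternatives that kept all 4 arrays. The share over all genes was 6.36%, and 6.23% to 10.2% under those alternatives. Among the brighter genes the count was 4 of 35 members, against 10.2% of all genes in that fit. With KO lower the count was 0 in each of these fits, against 2.94% to 4.03% of all genes. The median difference of the list was 0.08, and it ran from 0.02 to 0.14 under the 10 alternatives. The median level of the list varied between arrays of a genotype with an SD of 0.12. All moves were smaller than this SD, but the SD exceeds the median difference itself, so the comparison cannot show stability. Differences whose sign changed were at most 0.335 in size. After centring, Pole had 0.015, Rfc1 0.01, Rpa1 0.01 and Tk1 0.015, and after quantile normalization Pcna had -0.031, Pole 0.033, Rfc1 0.026, Rpa1 0.024 and Tk1 0.021. Leaving out 1 array gave ranges that cross 0 for 19 genes: Mcm2 -0.68 to 0.005, Mcm4 -0.31 to 0.06, Mcm5 -0.32 to 0.35, Mcm6 -0.48 to 0.035, Mcm10 -0.06 to 0.13, Tyms -0.08 to 0.15, Cdt1 -0.065 to 0.20, Gins2 -0.025 to 0.40, Pola1 -0.37 to 0.54, Pole -0.12 to 0.10, Rfc1 -0.15 to 0.12, Rfc3 -0.01 to 0.05, Rfc5 -0.015 to 0.30, Rpa1 -0.10 to 0.07, Orc6 -0.17 to 0.28, E2f1 -0.015 to 0.17, Lig1 -0.28 to 0.05, Slbp -0.16 to 0.02, Tk1 -0.085 to 0.065. Signal over background could not be examined, since the table holds neither background nor detection calls.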
